A study of Mus musculus with 20 samples.

Results

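The T-cell receptor complex and its coreceptors were followed in mouse blood through 10 genes: the CD3 chains *Cd3d*, *Cd3e*, *Cd3g* and *Cd247*, the coreceptors *Cd4*, *Cd8a* and *Cd8b1*, the kinases *Lck* and *Zap70*, and the adapter *Lat*. The members were taken by gene name from the array files, which list 31093 names on 39429 probes, and every probe of a member was kept, 14 in all. Of these, 13 passed the filter on background and 12 also passed the filter on variation and were tested. The RNA came from whole blood of male mice, drawn by cardiac puncture 24 h after whole-body X-rays, globin-reduced and hybridised to 20 single-colour Agilent arrays of 5 mice per group.

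The 4 groups were C57BL/6 mice labelled WT after 0 Gy (mock irradiation) or 7 Gy, and mice labelled *Il10*-/- (B6.129P2-*Il10*tm1Cgn/J) after 0 Gy or 7 Gy. All were 8 to 10 weeks old and came from breeding of heterozygous pairs. *Il10*-/- mice carry a germline loss of the anti-inflammatory cytokine interleukin-10, present in every cell and from birth, and serve as a model of inflammatory bowel disease. The comparisons ask how 7 Gy changed the transcripts of the T-cell receptor machinery in each genotype, whether the genotypes differed, and whether *Cd8a* and *Cd8b1* moved differently from *Cd4* and the CD3 genes.

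The T-cell receptor binds an antigen peptide through its alpha and beta chains but signals only through the CD3 chains and the zeta chain encoded by *Cd247*, whose tails are phosphorylated by the kinase LCK. ZAP70 then docks on these tails and phosphorylates the adapter LAT, which gathers the downstream enzymes. CD4 and CD8 are coreceptors that bind MHC class II and class I, bring LCK to the receptor, and mark the helper and cytotoxic lineages of mature T cells. CD8 is a pair of chains, alpha with beta on most cytotoxic T cells, and alpha with alpha on some dendritic cells and other lymphocytes of the mouse.

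Each probe is a stretch of 60 bases, and 4 genes (*Cd247*, *Cd4*, *Cd8a* and *Zap70*) had 2 of them. The sequences of the probe pairs of *Cd8a*, *Cd247* and *Cd4* are shown because the results below depended on which probe of a gene was read. Positions are in the mouse build mm9 as given in the array files, and "base" is the first base of the probe in the transcript named there. The probe nearer the start of each transcript is given whole, and of the one nearer the end the last 30 bases are given. Capitals mark AATAAA, the usual polyadenylation signal, which was searched on the printed strand alone and which 4965 of the 39429 probes hold (12.6%).
Cd8a, base 464, chr6:71323885-71323944, + strand: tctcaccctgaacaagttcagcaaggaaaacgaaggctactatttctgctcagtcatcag
Cd8a, base 2875, chr6:71328911-71328970, + strand: tctatctattgttactatcattttatacct
Cd247, base 346, listed as unmapped: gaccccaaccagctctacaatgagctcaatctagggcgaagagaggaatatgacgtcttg
Cd247, base 1843, chr1:167800324-167800383, + strand: agtttcctttggcaagacagatataaaaaa
Cd4, base 1242, chr6:124817706-124817765, - strand: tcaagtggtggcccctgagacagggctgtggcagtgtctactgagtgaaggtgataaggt
Cd4, base 3035, chr6:124814711-124814770, - strand: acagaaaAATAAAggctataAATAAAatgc

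The *Cd4* probe at base 3035 holds the signal in both of its copies, and the probes of *Cd3e* (base 1374, chr9:44806828-44806887) and *Lck* (base 2085, chr4:129225614-129225673) also end at one. The probes of *Cd8a* and *Cd247* nearer the transcript end hold none. *Cd8b1* was read at base 1201 (chr6:71287231-71287290), 41.7 kb from the *Cd8a* probe on the same strand of chromosome 6. *Cd3g* was read at base 750 (chr9:44777868-44777927), 29.0 kb from the *Cd3e* probe. *Cd3d* was read at base 537 (listed as unmapped), *Zap70* at bases 1939 and 2166 (chr1:36839315-36839374 and chr1:36839542-36839601), and *Lat* at base 958 (chr7:133507719-133507778). The exons that hold the probes are not annotated in the files used here.

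All values are log2 intensities relative to the median of their array, so that 0 is the median probe and a difference of 1 is 2-fold. Signals of different probes depend on the probe, and only differences between arrays are read. The tested difference of 2 groups came from limma across 18581 probes, and a call needs an unadjusted p under 0.001 as well as a false discovery rate (Benjamini-Hochberg) of less than 10%. An array counts as measuring a probe when the software marked its spots as well above background. Spots well above background made up 34.6% to 57.8% of the spots on 19 arrays and 29.9% on replicate 5 of the unirradiated mice labelled WT, where repeated spots of a probe also varied more (median SD 0.45, against 0.083 to 0.14 on the others). Replicates 1 and 2 were the closest pair in each of the 4 groups. Liver and heart-muscle markers, which blood should lack, rose in some groups (7 of 9 liver genes in irradiated mice labelled WT and 5 of 5 heart genes in irradiated mice labelled *Il10*-/-). Among unirradiated mice, liver markers were higher in *Il10*-/- than in WT, with 2 of 9 called and a median difference of 4.19. The part of both lists in the results was not tested. The *Il10* probe (base 701) separated the labels in the other direction from a lost transcript. It was between 1.94 and 3.29 on the 10 arrays labelled *Il10*-/- and between -2.64 and -1.06 on the 10 labelled WT, where no array measured it. The sources used here do not say whether this probe lies in the altered part of the gene, so it does not check the label.

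One member fell after irradiation in each genotype. The *Cd8a* probe at base 2875 was lower in irradiated mice of both genotypes, by a fitted 8.19-fold in WT and 4.06-fold in *Il10*-/-. These folds rest on irradiated signals that were well above background on 1 of 5 WT and 2 of 5 *Il10*-/- arrays, so their size depends on the background correction, as the normexp values below show. None of the CD3, *Cd8b1*, kinase or adapter probes was called in either response, and the *Cd4* probe at base 3035, which was steady enough to be removed by the filter on variation, was not called without that filter. The call on 1 of 12 tested probes stood against 6.80% of all tested probes called in the WT response, 2.32% of them lower, and against 9.15% called in the *Il10*-/- response, 5.87% of them lower. With 12 probes, a single call does not set the members as a whole apart from the array. In bulk blood, fewer T cells and less RNA per T cell cannot be told apart.

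**Figure D1:**
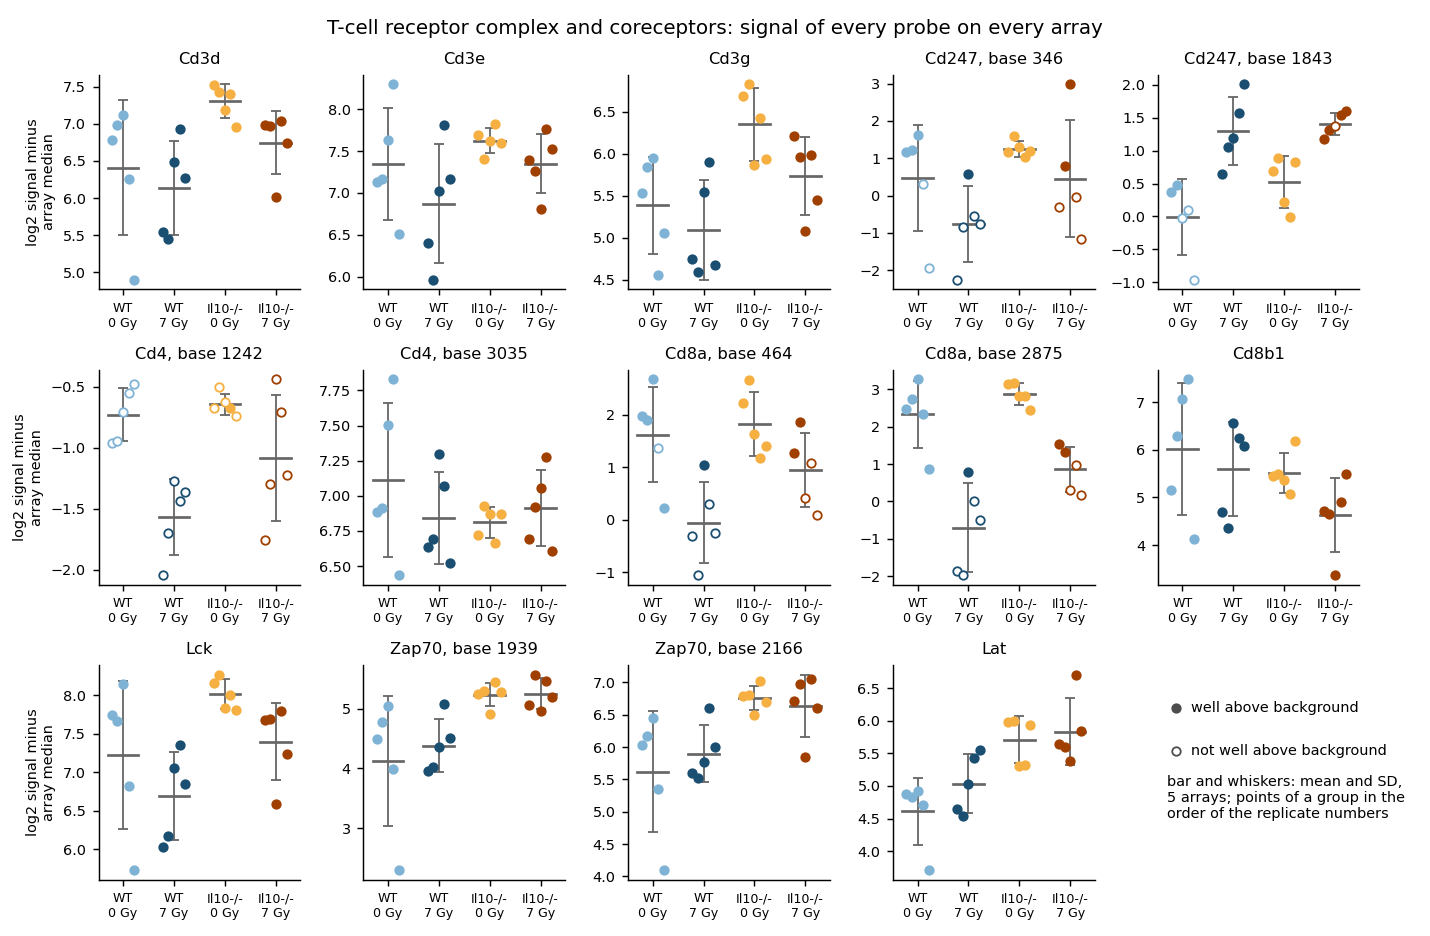
Log2 signal minus the array median (y axis) of each of the 14 probes in the 4 groups (x axis); filled points are arrays on which the probe was well above background, open points the others, and bars and whiskers are the mean and SD of 5 arrays. The Cd8a probe at base 2875 is lower on each irradiated array than on any unirradiated array of its genotype, while the doses overlap for Cd3d, Cd3e, Cd3g, Cd8b1 and Lat.

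*Cd8a* encodes the alpha chain that both forms of CD8 share. At base 2875 it read 2.47, 2.74, 3.27, 2.33 and 0.86 in unirradiated mice labelled WT (replicates 1 to 5), and -1.86, -1.96, 0.79, 0.02 and -0.50 after 7 Gy. In mice labelled *Il10*-/- it read 3.14, 3.18, 2.81, 2.82 and 2.46 without irradiation and 1.54, 1.32, 0.30, 0.97 and 0.18 after 7 Gy. In both genotypes every irradiated array lay below every unirradiated one, although in WT the gap is narrow, since the weak replicate 5 stood alone at the bottom of its group. All 5 unirradiated arrays of each genotype measured the probe well above background.

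The tested difference was -3.03 ± 0.57 (SE, n = 5 against 5, limma adjusted p = 0.00292) in WT and -2.02 ± 0.30 (limma adjusted p = 0.000941) in *Il10*-/-. Within slides, each of which held 1 array of every group, the irradiated array was lower on 5 of 5 slides in both genotypes, with differences of -4.70 to -1.36 in WT and of -2.51 to -1.60 in *Il10*-/-. The probe was called in each of the 10 fits without 1 array in both genotypes, with differences of -3.41 to -2.72 and of -2.19 to -1.85. Without the weak replicate 5 the WT difference was -3.40. After normexp background correction, which adds an offset of 50 and so compresses dim probes, the difference was -0.71 in WT and -0.57 in *Il10*-/-, the groups still did not overlap, and the probe no longer passed the filter on variation.

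The *Cd8a* probe at base 464 was also lower after irradiation on every slide. In WT it read 1.98, 1.90, 2.68, 1.36 and 0.22 without irradiation and -0.31, -1.05, 1.05, 0.31 and -0.26 after it. Mice labelled *Il10*-/- gave 2.23, 2.67, 1.64, 1.18 and 1.40, and then 1.27, 1.88, 0.42, 1.09 and 0.09. The slides showing this were 5 of 5 in both genotypes, yet the groups overlapped. Differences of -1.68 ± 0.50 (limma adjusted p = 0.0332) and -0.88 ± 0.38 (limma adjusted p = 0.123) did not reach the threshold for a call, except in WT without replicate 5, where the difference was -2.03 and was called.

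*Cd8b1*, the beta chain of the CD8 pair on cytotoxic T cells, spread widely. It read 5.15, 6.29, 7.08, 7.48 and 4.13 in unirradiated and 4.70, 4.36, 6.57, 6.25 and 6.08 in irradiated mice labelled WT. In mice labelled *Il10*-/- the values were 5.44, 5.49, 5.36, 5.07 and 6.19, and 4.72, 4.66, 3.38, 4.90 and 5.50 after irradiation. The WT groups covered one another almost fully, and in *Il10*-/- the irradiated array was lower on 5 of 5 slides with overlap of the groups. The differences of -0.43 ± 0.63 and -0.88 ± 0.36 were not called (limma adjusted p = 0.701 and 0.106). Without the weak replicate 5, the lowest unirradiated WT array, the WT difference was -0.91 ± 0.58, also not called.

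*Cd4*, the coreceptor of helper T cells, read 6.88, 6.91, 7.50, 7.83 and 6.44 at base 3035 in unirradiated mice labelled WT and 6.63, 6.69, 7.30, 7.07 and 6.52 after 7 Gy. In *Il10*-/- it read 6.72, 6.93, 6.87, 6.66 and 6.87, and 6.70, 6.92, 7.06, 7.27 and 6.61. These groups overlapped in both genotypes, with differences of -0.27 ± 0.36 and 0.10 ± 0.19 in the fit with the background filter alone (limma adjusted p = 0.704 and 0.738). The *Cd4* probe at base 1242 was well above background on 1 of 20 arrays and gives no fold.

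Of the CD3 chains, which carry the receptor to the cell surface and signal for it, none was called. *Cd3e* read 7.13, 7.17, 7.63, 8.30 and 6.51 in unirradiated and 6.40, 5.96, 7.02, 7.81 and 7.17 in irradiated mice labelled WT, and 7.69, 7.40, 7.62, 7.82 and 7.59 and then 7.39, 7.26, 6.81, 7.77 and 7.52 in mice labelled *Il10*-/-. *Cd3d* ran from 4.90 to 7.12 and then 5.45 to 6.93 in WT, and from 6.96 to 7.53 and then 6.01 to 7.03 in *Il10*-/-. *Cd3g* ran from 4.56 to 5.94 and then 4.59 to 5.90 in WT, and from 5.86 to 6.83 and then 5.08 to 6.22 in *Il10*-/-. All 3 genes overlapped between doses in both genotypes. Their differences were -0.47 ± 0.45, -0.27 ± 0.48 and -0.29 ± 0.42 in WT for *Cd3e*, *Cd3d* and *Cd3g*, and -0.28 ± 0.23, -0.55 ± 0.25 and -0.61 ± 0.29 in *Il10*-/-. Without the weak replicate 5 the WT differences were -0.68, -0.65 and -0.38, none called. Each of the 3 genes was in *Il10*-/- lower after irradiation on 5 of 5 slides.

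The probes of *Cd247*, the zeta chain that carries most of the phosphorylation sites of the complex, went opposite ways. At base 1843 it read 0.37, 0.48, -0.03, 0.09 and -0.96 in unirradiated and 0.65, 1.05, 1.20, 1.56 and 2.01 in irradiated mice labelled WT, and 0.69, 0.89, 0.21, -0.02 and 0.83 and then 1.18, 1.31, 1.38, 1.53 and 1.60 in mice labelled *Il10*-/-. Every irradiated array was above every unirradiated one in both genotypes. At base 346 it read 1.17, 1.22, 1.61, 0.30 and -1.93 and then -2.26, -0.85, 0.58, -0.55 and -0.78 in WT, and 1.17, 1.60, 1.29, 1.02 and 1.18 and then -0.31, 0.78, 2.98, -0.05 and -1.16 in *Il10*-/-. There the irradiated array was lower on 4 of 5 slides in each genotype, and the groups overlapped.

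The differences at base 1843 were 1.30 ± 0.41 (limma adjusted p = 0.0413) in WT and 0.88 ± 0.24 (adjusted p = 0.0219) in *Il10*-/-, neither called at the threshold used, and at base 346 they were -1.24 ± 0.64 and -0.81 ± 0.60. With the arrays scaled to 1 reference array the rise at base 1843 was called in both genotypes (1.21 and 1.03). Both probes were dim: the one at base 346 was well above background on 3, 1, 5 and 2 of 5 arrays, and the one at base 1843 on 2, 5, 5 and 4 of 5, in the order WT 0 Gy, WT 7 Gy, *Il10*-/- 0 Gy and *Il10*-/- 7 Gy.

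**Figure D2:**
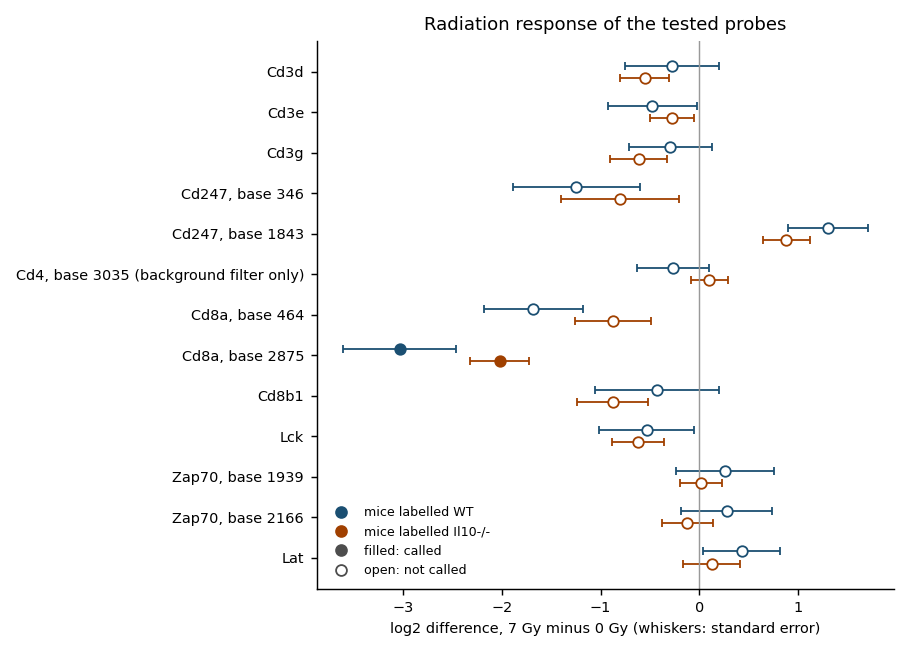
Log2 difference of 7 Gy minus 0 Gy (x axis) with its standard error for 13 probes (y axis), in mice labelled WT and mice labelled Il10-/-; filled points were called in limma. Only the Cd8a probe at base 2875 was called, at -3.03 and -2.02, and the Cd247 probes at bases 346 and 1843 lie on opposite sides of 0.

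*Lck*, the kinase that CD4 and CD8 carry to the receptor, read 7.74, 7.67, 8.15, 6.82 and 5.73 and then 6.02, 6.18, 7.05, 7.36 and 6.85 in mice labelled WT. Mice labelled *Il10*-/- gave 8.16, 8.27, 7.83, 8.0 and 7.81, and after irradiation 7.67, 7.69, 6.58, 7.79 and 7.24. The *Il10*-/- groups did not overlap, though their nearest arrays nearly met, and the difference of -0.62 ± 0.26 was not called (limma adjusted p = 0.114), nor was that of -0.53 ± 0.48 in WT (-0.90 without the weak replicate 5).

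*Zap70*, the kinase that binds the phosphorylated chains, differed by 0.28 ± 0.46 at base 2166 and 0.26 ± 0.49 at base 1939 in WT, and by -0.12 ± 0.26 and 0.02 ± 0.21 in *Il10*-/-. *Lat*, the membrane adapter, differed by 0.43 ± 0.39 in WT and 0.13 ± 0.29 in *Il10*-/-. The weak array, replicate 5 of WT at 0 Gy, was the lowest for both *Zap70* probes and for *Lat*. Without it the WT differences were -0.10 and -0.20 for *Zap70* and 0.20 for *Lat*.

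In counts of separated groups, 1 of 12 tested probes was lower without overlap in WT (*Cd8a* at base 2875) and 1 higher (*Cd247* at base 1843), where 4.26% and 11.9% of all tested probes were. In *Il10*-/- these were 2 lower (*Cd8a* at base 2875 and *Lck*) and 1 higher (*Cd247* at base 1843), against 10.9% and 6.12% of all. The median change over the 10 genes was -0.28 in WT and -0.42 in *Il10*-/-, and over all genes 0.04 and -0.11.

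Whether CD8 transcripts fell relative to the rest of the T-cell machinery was read as a ratio of 2 probes of the same array, which a constant scaling of the array leaves as it is. Each gene was represented by the brightest probe that passed the background filter. *Cd8a* over *Cd3d* was -4.08 ± 0.20 (SD, n = 5) in unirradiated and -6.84 ± 0.70 in irradiated mice labelled WT, a change of -2.76. In *Il10*-/- it went from -4.42 ± 0.13 to -5.89 ± 0.44, a change of -1.47. Among unirradiated mice this ratio hardly varied, although both signals spread widely in WT, and the weak replicate 5 lay within its group.

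*Cd8a* fell against all 5 comparators in both genotypes. In WT the ratio changed by -2.77 over *Cd4*, -2.56 over *Cd3e*, -2.74 over *Cd3g* and -4.34 over *Cd247*, and in *Il10*-/- by -2.12, -1.75, -1.41 and -2.90. The sizes are limited by the *Cd8a* probe, which few irradiated arrays measured above background, and over *Cd247* also by its probe at base 1843, measured on 2 of 5 unirradiated WT arrays. No irradiated array overlapped an unirradiated one in any of these 10 comparisons. Each had p = 0.0079 in a 2-sided exact permutation test, the smallest that 5 arrays against 5 allow, and an adjusted p of 0.0159 in WT and 0.0132 in *Il10*-/- over the 10 ratios of a genotype. With normexp and its offset of 50, the changes over *Cd4* and the CD3 genes other than *Cd247* shrank to between -0.30 and 0.15 in WT and to between -0.70 and -0.12 in *Il10*-/-. At that setting 0 of 10 ratios in WT and 2 of 10 in *Il10*-/- passed.

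The *Cd8b1* ratios did not pass the threshold in WT, where their changes over *Cd4* and 3 CD3 genes were smaller than the SD within the groups. The change was -0.16 over *Cd4*, -0.16 over *Cd3d*, 0.04 over *Cd3e* and -0.14 over *Cd3g*, with exact permutation p of 0.643 to 0.905 and SDs within groups of at least 0.48. Over *Cd247* it was -1.73 (p = 0.0317, adjusted 0.0529, exact). For *Il10*-/- the ratio of *Cd8b1* changed by -0.98 over *Cd4*, -0.32 over *Cd3d*, -0.60 over *Cd3e* and -0.27 over *Cd3g*, none past the threshold, and by -1.76 over *Cd247* (exact p = 0.0079, adjusted 0.0132). The *Cd247* probe used here, at base 1843, is the one that was higher after irradiation.

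**Figure D3:**
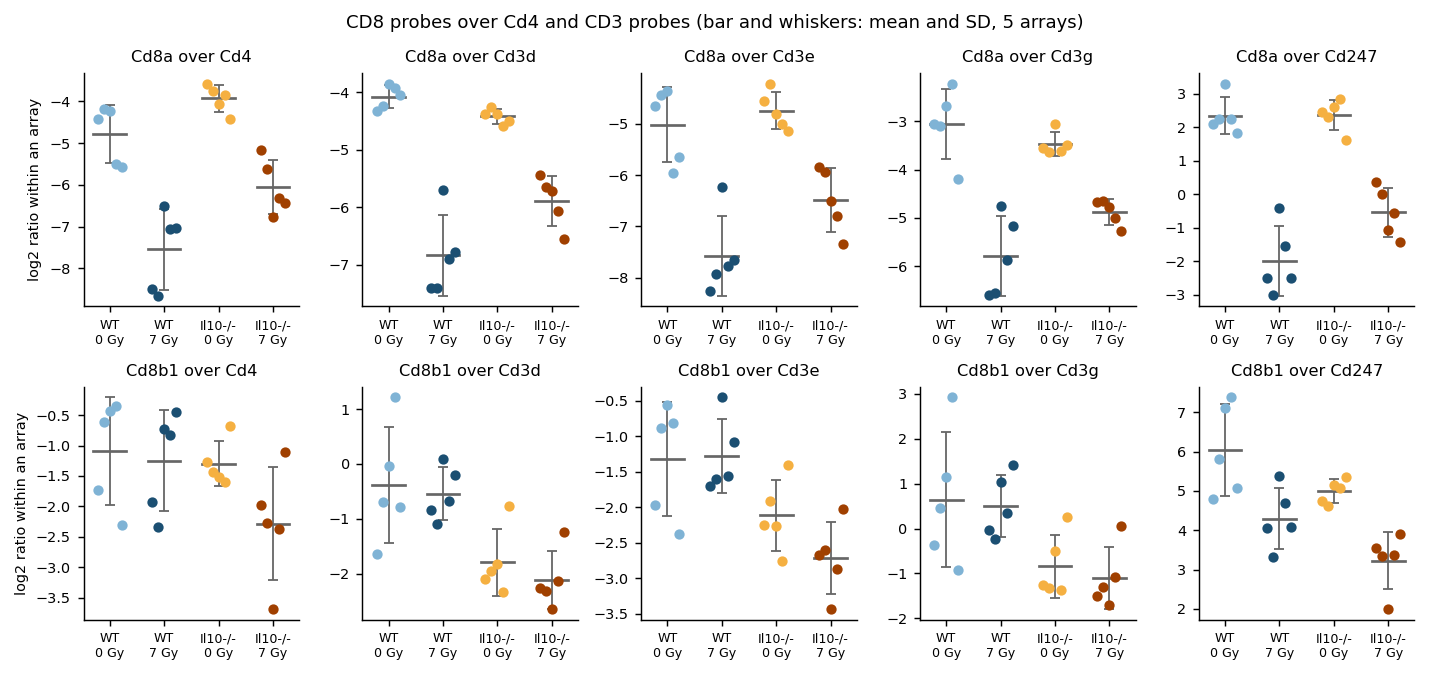
Within-array log2 ratio (y axis) of Cd8a (upper row) and Cd8b1 (lower row) over Cd4 and the CD3 genes, in the 4 groups (x axis), with mean and SD of 5 arrays. Each Cd8a ratio is lower on every irradiated array than on any unirradiated array of its genotype, whereas the Cd8b1 ratios overlap between doses except over Cd247 in mice labelled Il10-/-.

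The 2 chains of CD8 were also set against each other, a comparison chosen after their values were seen. *Cd8a* over *Cd8b1* went from -3.69 ± 0.91 (SD, n = 5) to -6.29 ± 0.33 in WT, a change of -2.60 (exact permutation p = 0.0079, adjusted 0.0159 over 4 comparisons), with no overlap. In *Il10*-/- it went from -2.63 ± 0.63 to -3.77 ± 0.93, a change of -1.14 (exact p = 0.0397, adjusted 0.0529), with overlap. The irradiated groups differed by 2.53 (exact p = 0.0079, adjusted 0.0159), the ratio being higher on every irradiated *Il10*-/- array. After normexp these 3 changes were -0.38, 0.03 and 0.97, and none passed.

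Dendritic cells and natural killer cells, which can also carry *Cd8a* or CD3 transcripts in the mouse, were read through marker lists. Of 5 dendritic-cell markers tested, 1 was called lower in each genotype (*Flt3*, a growth factor receptor of dendritic cells and progenitors, -2.19 and -2.61). Among all tested probes 2.32% in WT and 5.87% in *Il10*-/- were called lower. The mean log2 signal of the dendritic list was 3.02 to 4.44 on unirradiated WT arrays, 3.03 to 4.27 on irradiated ones, and 3.95 to 4.51 and 3.48 to 4.17 on the corresponding *Il10*-/- arrays. Of 10 natural killer markers 0 were called by limma, and 3 in each genotype had an unadjusted p below 0.05. Of all 18581 tested probes, 5397 in WT and 6593 in *Il10*-/- had such a p. The mean of the natural killer list was 3.22 to 4.40 and 3.83 to 5.08 for WT at 0 and 7 Gy, and 4.08 to 4.79 and 3.96 to 5.14 for *Il10*-/-. The part of either cell type in the *Cd8a* result was not tested.

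The responses of paired probes of a gene were set against each other in 8 tests chosen after the values were seen. For *Cd247* the probe at base 1843 rose against the one at base 346 by 2.55 in WT (exact permutation p = 0.0159, adjusted 0.0423), and in *Il10*-/- the difference was 1.69 and did not pass (exact p = 0.0556, adjusted 0.0741). *Zap70*, whose probes lie close together, changed by 0.02 and -0.14 between its probes (exact p = 0.913 and 0.452). For *Cd8a* the probe at base 2875 changed against the one at base 464 by -1.35 in WT and -1.15 in *Il10*-/-. Both passed (exact permutation p = 0.0079, adjusted 0.0317). The other *Cd4* probe changed against the one at base 1242 by 0.57 in WT and 0.54 in *Il10*-/-. Only the latter passed (exact p = 0.0556 and 0.0238, adjusted 0.0741 and 0.0476). Both *Cd8a* probes and the *Cd247* probe at base 346 were well above background on few irradiated arrays. Each was so on 1 of 5 in WT and 2 of 5 in *Il10*-/-. The *Cd4* probe at base 1242 was measured on 1 array. The sizes for *Cd8a*, *Cd247* and *Cd4* therefore rest on dim signals, and no difference between transcripts is read from them.

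**Figure D4:**
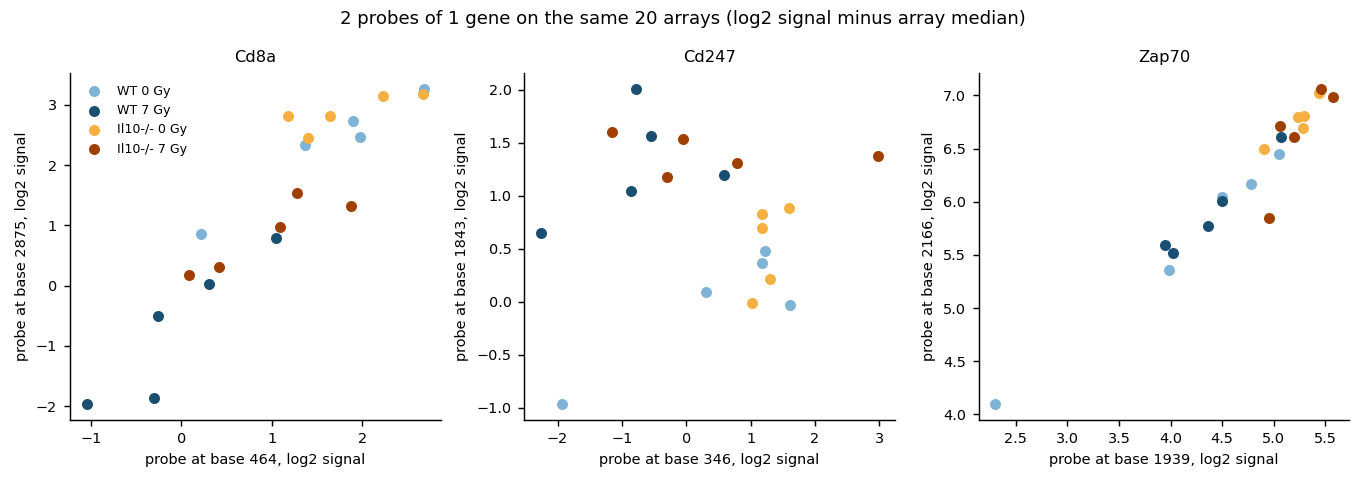
Log2 signal minus the array median of the probe nearer the transcript end (y axis) against the other probe of the same gene (x axis) on 20 arrays, for Cd8a, Cd247 and Zap70. The Zap70 and Cd8a probes rise together across arrays, while for Cd247 every irradiated array lies above the unirradiated arrays of its genotype on the y axis but not on the x axis.

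Probes with AATAAA were read beside this, without a check that they sit at transcript ends. The signal of each probe was taken relative to its own mean over all arrays, and the AATAAA probes were compared with all other probes. On each array, the mean of the AATAAA probes minus that of the others was read. It was -0.14 to 0.003 on unirradiated and -0.04 to 0.19 on irradiated WT arrays. On unirradiated and irradiated *Il10*-/- arrays it was -0.08 to 0.05 and -0.11 to 0.13. Such values compare arrays and do not give the brightness of the AATAAA probes. The median response of AATAAA probes was 0.15 in WT, against 0.04 for other probes, and -0.09 in *Il10*-/-, against -0.12. The *Cd4* probe at base 3035 and the *Cd3e* and *Lck* probes are of this kind. All other member probes are not, those of *Cd3d*, *Cd3g*, *Cd247*, *Zap70* and *Lat* as well as those of *Cd8a* and *Cd8b1*. The part of the transcript end in the results was not tested.

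Between genotypes 0 of 12 member probes were called by limma. An unadjusted p below 0.05 was held by 4 in unirradiated and 5 in irradiated mice, against 2990 and 2066 of all 18581 tested probes. Among unirradiated mice, signals in *Il10*-/- were higher by 1.14 ± 0.44 and 1.11 ± 0.47 for the *Zap70* probes at bases 2166 and 1939, 1.10 ± 0.38 for *Lat*, 0.96 ± 0.40 for *Cd3g*, 0.89 ± 0.43 for *Cd3d* and 0.79 ± 0.44 for *Lck*, with limma adjusted p of 0.221 to 0.346, and *Cd8b1* differed by -0.51 ± 0.54. *Lat* at 5.30 to 6.00 in *Il10*-/- stood above 3.71 to 4.92 in WT without overlap, and *Zap70* at base 2166 did so too, 2 of 12 tested probes where 3.98% of all tested probes were higher without overlap. Of all tested probes 0.845% were called. Without the weak replicate 5 of WT the *Zap70* differences were 0.76 and 0.65, those of *Cd3d* and *Lck* 0.51 and 0.42, that of *Lat* 0.87 and that of *Cd8b1* -0.99. The median over all tested probes was itself 0.36 higher in *Il10*-/-, and it was 0.01 with the arrays scaled to a reference array. At that scaling 9 of 11 member probes were still above 0, with a median of 0.51, against 11 of 12 and a median of 0.79 otherwise. In the same comparison 4 of 7 neutrophil markers were called higher in *Il10*-/-, with a mean log2 signal of 8.41 to 9.92 against 6.23 to 7.92. So were 2 of 9 liver markers, with a mean of 3.21 to 10.6 against 0.78 to 3.26. The part of either list in the members' differences was not tested.

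Among irradiated mice 0.00538% of all tested probes were called, and no member. The *Cd8a* probe at base 2875 was 1.56 ± 0.53 higher in *Il10*-/- (limma adjusted p = 0.390) and *Cd8b1* was 0.96 ± 0.50 lower on the log2 scale (adjusted p = 0.486). As ratios within an array, *Cd8b1* was lower in irradiated *Il10*-/- mice over *Cd3d* (-2.12 ± 0.53 against -0.54 ± 0.48, SD, n = 5) and over *Cd3e* (-2.72 ± 0.51 against -1.28 ± 0.52). Both differences, -1.57 and -1.44, had an exact permutation p of 0.0079 (adjusted 0.0397) and no overlap, and both passed with normexp as well (-1.29 and -1.16). With 1 of the irradiated WT replicates 1, 2, 4 or 5 left out, 0 of the 10 ratios passed. In unirradiated mice the 2 ratios differed in the same direction, by -1.41 over *Cd3d* and -0.79 over *Cd3e*. These did not pass (exact permutation p = 0.0238 and 0.103, adjusted 0.106 and 0.172).

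The responses of the genotypes did not differ past the threshold for any member, nor for any probe of the array (0.0% called by limma, with 1300 of 18581 and 0 of the 12 member probes at an unadjusted p below 0.05). For *Cd8a* at base 2875 the response in *Il10*-/- was 1.01 ± 0.69 smaller in size (limma interaction, adjusted p = 0.718). For the *Cd8a* ratios the difference between responses was 1.29 ± 0.56 (SE) over *Cd3d*, 1.33 ± 0.59 over *Cd3g*, 1.44 ± 0.63 over *Cd247*, 0.81 ± 0.61 over *Cd3e* and 0.64 ± 0.62 over *Cd4*, given without a call. For *Cd8b1* it ran from -0.82 to -0.02.

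The enzymes and adapters around the receptor were followed in a list of 50 names, of which 44 were on the array and 41 were tested. In WT 1 was called, *Malt1*, a protease of the pathway to NF-kB, which fell by 1.96. In *Il10*-/- 6 fell, among them *Malt1* (-1.63 ± 0.22), the diacylglycerol kinase *Dgka* (-1.28 ± 0.24), *Themis*, an adapter of T-cell development (-1.19 ± 0.22), the transcription factor *Nfatc3* (-1.16 ± 0.24) and *Ptprc*, the CD45 phosphatase of all white cells (-1.10 ± 0.25). None rose in either genotype. Of all tested probes 2.32% were called lower in WT and 5.87% in *Il10*-/-, so 1 of 41 in WT does not set the list apart. The median over the list was -0.48 in WT and -0.46 in *Il10*-/-, with 35 and 32 of 43 genes below 0. Over all genes the median was 0.04 and -0.11. *Themis*, *Nfatc3* and *Ptprc*, like *Bcl11b* below, are named because they were called, after their values were seen.

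Of 9 transcription factors of the T lineage, all tested, 3 were called lower in WT and 4 in *Il10*-/-, with medians of -1.38 and -0.93. Of all tested probes 2.32% and 5.87% were called lower. *Tcf7*, which keeps T cells in a naive or memory state, fell in both genotypes (-2.68 in WT and -2.42 in *Il10*-/-). So did *Lef1*, its close relative (-2.30 and -1.77), and *Ets1*, a regulator shared by T and B cells (-1.96 and -1.87). *Bcl11b*, which fixes the T-cell fate, fell by 1.05 in *Il10*-/- and differed by -1.38 in WT, where it was not called. The difference between these factors and the receptor genes was not tested.

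**Figure D5:**
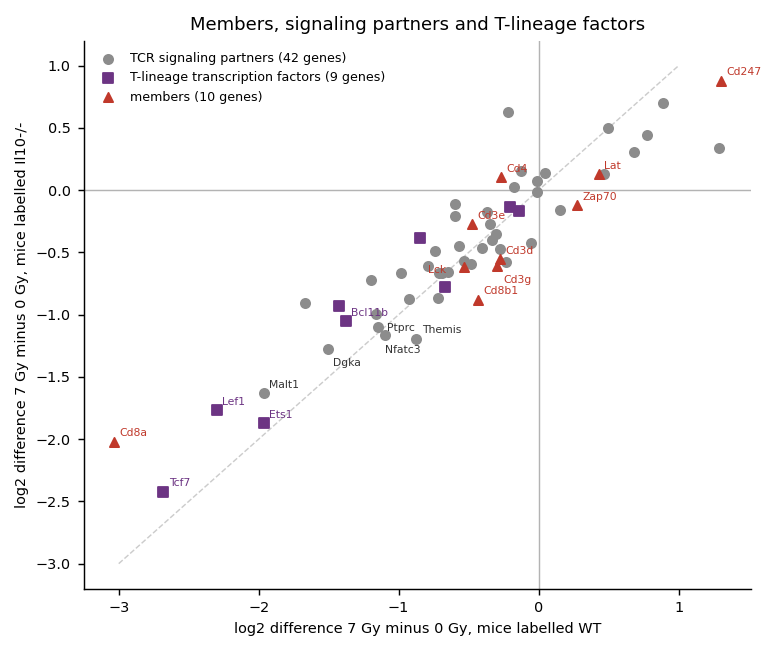
Log2 difference of 7 Gy minus 0 Gy in mice labelled WT (x axis) and labelled Il10-/- (y axis), 1 probe per gene, for the 10 members, 42 signaling partners and 9 T-lineage factors; the dashed line marks equal values, all members are named, and the others shown are named where called in either genotype. Cd8a (-3.03 and -2.02) lies with Tcf7 and Lef1 at the lower left, far from Cd4, Cd3e and Zap70.

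B-cell markers moved with these lists: 8 of 9 were called lower in each genotype, and their mean log2 signal was 4.63 to 6.05 in unirradiated and 2.03 to 2.89 in irradiated WT arrays, and 4.49 to 5.65 and 1.66 to 2.18 in *Il10*-/-. *Malt1*, *Ptprc* and *Ets1* are expressed in B cells as well, and the part of B cells in their falls was not tested. Of 8 erythroid markers, 4 were called lower and 1 higher in WT, and 5 were called lower in *Il10*-/-. Platelet markers were called for 0 of 8 by limma, with median differences of 1.27 and 1.19. An unadjusted p below 0.05 was held by 8 of them in WT and 7 in *Il10*-/-, against 5397 and 6593 of all 18581 tested probes. Of 7 monocyte markers tested, 3 were called higher and 1 lower in WT, and 2 were called lower in *Il10*-/-. For all tested probes the share called was 6.8% in WT and 9.15% in *Il10*-/-.

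Across arrays most of the receptor genes varied together, *Cd247* least. With each value taken relative to its group mean, the mean of *Cd3d*, *Cd3e* and *Cd3g* correlated over the 20 arrays with *Lck* at r = 0.920, with *Zap70* at base 2166 at 0.875, with *Cd8a* at base 2875 at 0.869, with *Cd8b1* at 0.705, and with *Cd247* at 0.288 and 0.508 for bases 346 and 1843. Among the 5 genes outside the members most like this mean were the adapter *Skap1* (r = 0.95, rho = 0.85), the surface receptor *Cd5* (0.94 and 0.89), *Jakmip1* (0.93 and 0.88) and the costimulator *Icos* (0.93 and 0.79). Leaving out the weak WT array, the r of these 4 genes was 0.91 to 0.94, while that of *Lck* was 0.899, *Zap70* 0.843, *Cd8a* 0.831, *Cd8b1* 0.606 and *Cd247* 0.0414 and 0.326. The arrays share slides and the same scaling, and the values describe these arrays only.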

How the data were processed

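Per the file headers and the study's methods, the authors scanned whole-mouse-genome Agilent 4x44 v2 arrays and extracted an intensity for every spot with Agilent Feature Extraction (10.7 per the submitters' processing notes, 12.0.2.2 in the file headers), background-subtracted and detrended within the array; coordinates are of build mm9. The deposited log2 table, which the authors median-normalized and filtered with BRB-ArrayTools, was used as an alternative. Here, log2 processed signals were taken, non-uniform outlier spots dropped, spots of a probe averaged and the median of 39429 non-control probes subtracted per array. Of these, 22988 were significantly above background and unflagged on over 75% of arrays, and 18581 also lay at least 1.5-fold from their median on 20% of arrays or more. Each comparison was fitted on its 10 arrays, and the interaction on 20, with limma 3.58.1 in R 4.3.3. Within-array ratios were tested by 2-sided exact permutation with Benjamini-Hochberg adjustment over 10 ratios. Tests were checked on simulated data. The 5 samples of a group are labelled as separate mice; p-values measure the spread between these samples. Members and gene lists were chosen with earlier results of these data known. Text names all members, in each list the 3 largest called rises and falls, and the 5 genes most correlated with the CD3 mean, except that single-gene results of 2 genes are not reported here. Alternatives were the scaling, normexp background, filters, thresholds, a pooled fit, the replicate block and leaving out replicates. Array number and signal over background limit the precision.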

Additional observations from a re-analysis of the deposited data

Results flagged for a closer look

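Of 56 groups of 5 values (14 probes in 4 groups), 2 held 1 array far from the other 4, where chance alone sets apart about 1 group in 20. *Cd3d* in irradiated mice labelled *Il10*-/- was lowest in replicate 3, at 6.01, and the gap to the next array was 0.713 of the group's range (critical value 0.71). *Lat* in unirradiated mice labelled WT was lowest in replicate 5, at 3.71, with a gap of 0.822 of the range. That array was also the weak one, with the fewest spots well above background.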

How the results depend on the processing

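The fall of *Cd8a* at base 2875 was called in both genotypes under every alternative except normexp, where the filter on variation removed it and 0 member probes were called in either genotype, against 1 otherwise. In WT, 2 member probes were called at the 75th-percentile scaling, the reference-array scaling, in 1 fit of all 4 groups and in the deposited table, and 3 at a false discovery rate of 5% alone. In *Il10*-/-, 2 were called at the reference-array scaling, at 5% alone and in the deposited table. The additional probes were *Cd247* at base 1843 and, in WT, *Cd8a* at base 464. Without 1 replicate, 1 to 2 probes were called in WT (2 without replicate 5 of WT at 0 Gy) and 1 in each case in *Il10*-/-.

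Of the 10 ratios of *Cd8a* and *Cd8b1* to *Cd4* and the CD3 genes, 5 passed in WT, 6 in *Il10*-/- and 2 between irradiated genotypes. With normexp these were 0, 2 and 2, and *Cd8a* over *Cd3e* in WT turned to 0.15. Without 1 replicate they were 5 to 6, 6 to 8 and 0 to 8. For the irradiated genotypes, 0 passed without WT replicate 1, 2, 4 or 5, and 8 without WT replicate 3 or *Il10*-/- replicate 5. With the mean of all probes of a gene, 5 passed between irradiated genotypes. With replicates 1 and 2 averaged, 0 passed in WT and between irradiated genotypes, and without the slide of the weak WT array, 0 in both as well. With 4 arrays per group the smallest exact permutation p is 0.0286. At that p, 5 of 10 ratios cannot pass after adjustment unless another ratio reaches it too. Those settings therefore could not decide whether the *Cd8a* ratios in WT, or the 2 ratios between irradiated genotypes, hold.

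Each replicate number was also a slide. With the replicate block 0 ratios passed in any comparison, because an exact test of 5 pairs cannot go below p = 0.0625, while the limma calls of 1 and 1 member probes were the same. Same-numbered arrays did not deviate together throughout (correlations of -0.66 to 0.68), so the number was not taken as a pairing. The correlations differed by comparison. They were 0.06 to 0.32 between WT doses and -0.37 to 0.41 between *Il10*-/- doses. Between genotypes they were -0.34 to 0.20 in unirradiated and -0.02 to 0.68 (mean 0.41) in irradiated mice. Of 2313 other values, 2238 kept their side of the threshold, 30 moved past it, 44 fell short of it and 1 reversed. In addition, 72 values that were not called differed in sign. Signal over background limits the probes of *Cd8a* and *Cd247*, most of all in irradiated WT mice for *Cd8a*.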
